A study of Mus musculus with 21 samples.

Results

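The genes of the synaptic vesicle release machinery were followed in RNA-seq of mouse midbrain. They were taken by gene symbol, as all symbols that begin with Syt, Stx, Vamp, Snap, Stxbp or Cplx and a digit or with Unc13, together with Syn1, Syn2, Syn3, Sv2a, Sv2b, Sv2c and Syp. This gave 68 genes, out of 33829 listed for the pre-treatment experiment and 55385 listed for the delayed experiment. All 21 mice were male C57BL/6 mice labelled as 6 weeks old, in 7 groups of 3, and all injections were intraperitoneal. The pre-treatment experiment had a control group given ddH2O for 10 days, an MPTP group given ddH2O for 5 days and then MPTP at 30 mg/kg/d for 5 days, and an irisin-MPTP group given irisin at 200 μg/kg/d for 5 days before the same MPTP course. The delayed experiment had a control group given ddH2O for 10 days, an irisin group given 5 days of ddH2O and then 5 days of irisin, an MPTP group given 5 days of MPTP and then 5 days of ddH2O, and an MPTP-irisin group given 5 days of each. MPTP is a neurotoxin that damages dopaminergic neurons, and irisin is the secreted part of the membrane protein FNDC5. The labels give the tissue as midbrain, and the methods describe nigral tissue dissected by hand from perfused brains. The labels number the replicates of a group and say nothing of pooling, so each library is called 1 mouse here.

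Vesicle release depends on SNARE proteins. VAMP2 on the vesicle winds together with SNAP25 and a syntaxin on the plasma membrane and draws both membranes into contact. Sec1/Munc18 proteins hold the syntaxin, Munc13 proteins (the Unc13 genes) open it and prime vesicles, complexins hold the assembled complex ready, and synaptotagmins such as SYT1 and SYT2 sense the calcium that triggers fusion. Synapsins tether the reserve pool, and SV2 proteins and synaptophysin sit in the vesicle membrane. Many syntaxins, VAMPs and SNAP25 relatives serve fusion at endosomes, Golgi or other membranes instead, and they are members only by name, as is Snap91, which encodes the clathrin adaptor AP180.

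Pre-treatment libraries held 66.7 to 75.6 M counts per mouse (median 69.8 M) and delayed libraries 48.8 to 77.2 M (median 55.4 M). The members took 1.41 to 1.48% of the former and 1.60 to 1.69% of the latter. Slc6a3 and Th, which mark the dopaminergic neurons of this tissue, were present in every mouse, Slc6a3 at 15.3 CPM (counts per M counts of the scaled library) or more and Th at 21.3 CPM or more. Libraries stood apart in choroid plexus RNA. The summed level of its 5 markers was 9.99 to 25.6 CPM in 8 pre-treatment mice and 1640.4 CPM in MPTP replicate 2. In the delayed experiment it exceeded 1000 CPM in control replicates 1 and 2, MPTP replicate 3 and MPTP-irisin replicate 2, and was 37.3 to 569 CPM in the other mice. Results that rest on these libraries are also given without them, an alternative chosen after the data were seen. In whole tissue, fewer cells of a type and less RNA per cell cannot be told apart.

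The control mice gave the order of the members on the FPKM scale, which divides by gene length. Cplx1, a complexin, stood first with 605 ± 18.6 FPKM in the delayed controls and 409 ± 36.5 FPKM in the pre-treatment controls (SD, n = 3). Snap25 followed with 378 ± 15.3 FPKM and 392 ± 26.8 FPKM. It held 12.2% of the summed FPKM of all members in the delayed controls and 15.1% in the pre-treatment controls. The levels of these 2 genes did not overlap among the delayed controls and did overlap among the pre-treatment controls. Syp (232 FPKM) and Vamp2 (197 FPKM) came next in the delayed controls, without overlap, and kept those places in the pre-treatment controls, where they overlapped. Syn1, Snap47 and Sv2a were close together (147, 141 and 134 FPKM in the delayed controls), and neighbouring levels overlapped.

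Levels within a role spanned a wide range. Among plasma membrane syntaxins, the delayed controls had 21.9 ± 1.096 FPKM of Stx4a, the form of constitutive secretion, and 8.37 ± 0.893 FPKM of Stx1a, a neuronal form, and Stx11 (0.111 FPKM) and Stx19 (0.0143 FPKM) were lowest. Among complexins, Cplx3 was at 0.355 FPKM and Cplx4 was listed at 0 or its stand-in of 0.0001, far from Cplx1. Among calcium-binding synaptotagmins, Syt1 (54.7 ± 5.05 FPKM) and Syt2 (48.7 ± 19.1 FPKM) led, and Syt10 was lowest at 0.547 FPKM. Both are fast calcium sensors, and the level of Syt2 varied far more between mice. Among synaptotagmins that bind calcium poorly, Syt11 had 118 FPKM, above Syt1, and Syt15 had 0.250 FPKM. Unc13c (10.7 FPKM) and Unc13a (6.96 FPKM) were the main Munc13 genes, and Unc13d was at 0.238 FPKM. Among the syntaxin-binding proteins Stxbp5l, which encodes the inhibitor tomosyn-2, was lowest at 1.08 FPKM. Stx12, an endosomal syntaxin, led the inner-membrane syntaxins at 38.6 FPKM and the Golgi syntaxin Stx6 was lowest at 2.58 FPKM, a place held by Stx8 (2.54 FPKM) in the pre-treatment controls. Of the VAMPs, Vamp2 was the highest and Vamp9 (0.134 FPKM) the lowest, and of the SNAP25 family Snap23, the form of non-neuronal cells, was lowest at 3.20 FPKM. Of the synapsins, Syn3 was at 0.671 FPKM beside 147 FPKM for Syn1 and 24.9 FPKM for Syn2, and Snap91 was at 28.9 FPKM.

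After the filter on low counts, 65 members were tested in each experiment. Cplx4, a complexin of the retina, Syt8 and Stx19 did not pass it and had at most 0.361, 0.173 and 0.213 CPM in any mouse. Of the tested members, 2 are pseudogenes (Stxbp3-ps and Vamp7-ps), whose counts are uncertain because reads can be shared with their parent genes.

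**Figure D1:**
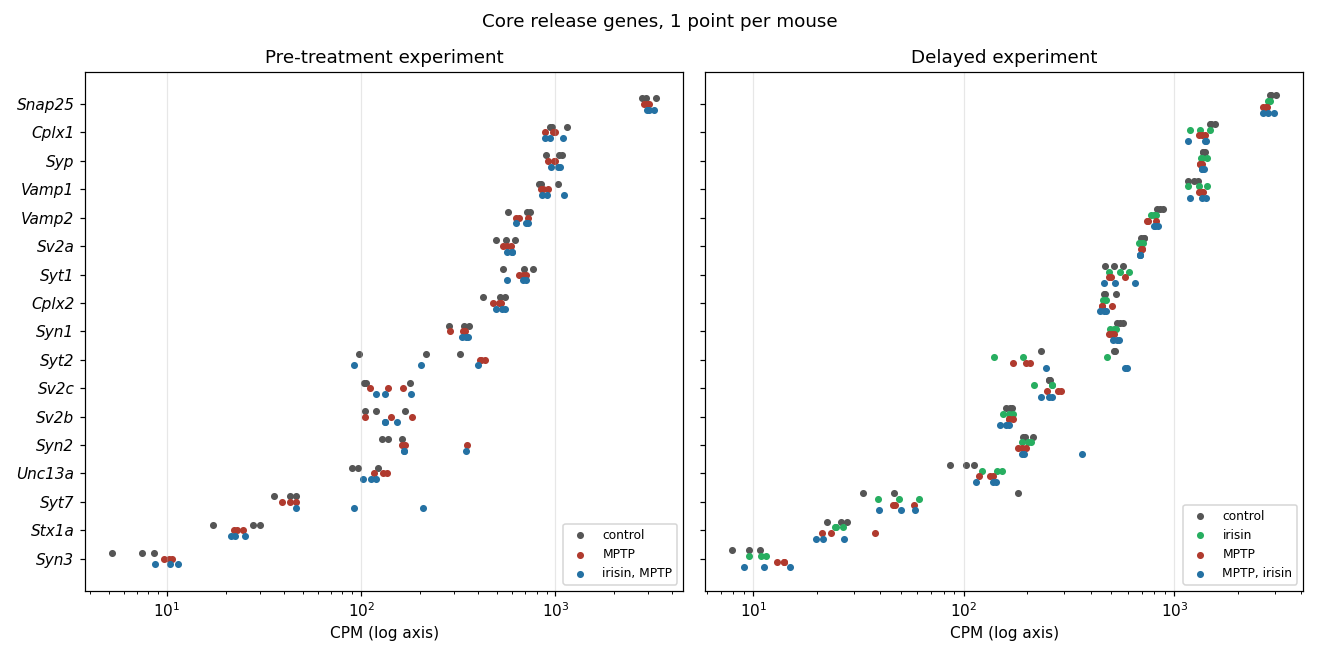
Level of 17 core release genes in every mouse, in CPM on a log axis, with 1 point per mouse coloured by group and the experiments side by side. Most genes form a tight cluster in each experiment (Snap25 from 2624 to 3304 CPM over all mice), whereas Syt2, Syt7 and Syn2 have mice far from the rest.

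No member passed an adjusted p of 0.05 (edgeR quasi-likelihood test, Benjamini-Hochberg over all tested genes) in any of the 6 comparisons, and DESeq2 also called 0. Of all tested genes, 0.0221%, 0.0707%, 0.132%, 0.109%, 0.00456% and 0.0411% passed. Without adjustment, a p under 0.05 was given to 8, 7, 8, 6, 2 and 5 members by edgeR and to 9, 8, 8, 6, 3 and 4 by DESeq2. The order of these values is MPTP against control and irisin-MPTP against MPTP in the pre-treatment experiment, then MPTP against control, irisin against control, MPTP-irisin against MPTP and the interaction of both treatments in the delayed experiment. In the same order, the smallest edgeR adjusted p of any member was 0.815, 0.577, 0.412, 0.326, 1.0 and 0.893. The genes below are therefore described by their values, and none of their differences passed the test over all genes.

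**Figure D2:**
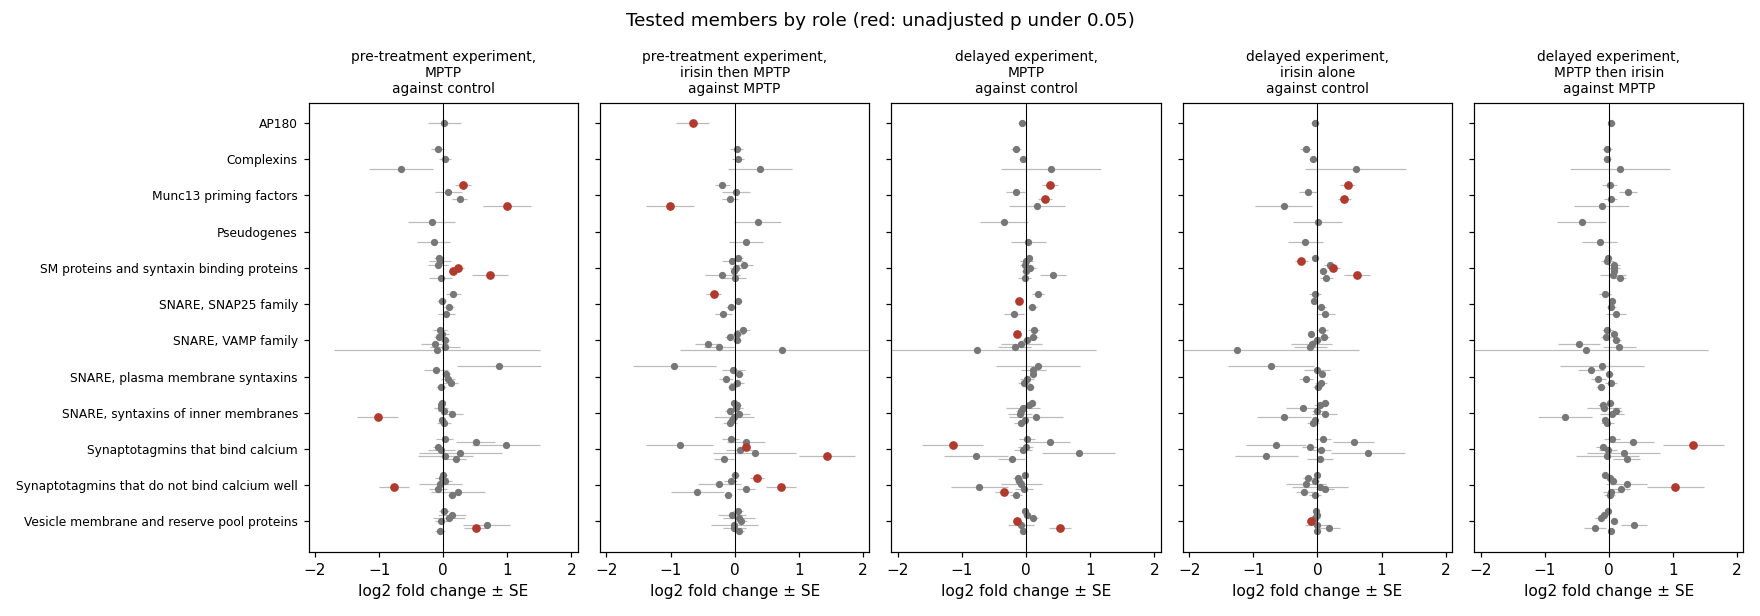
Log2 fold change of each tested member, grouped by role, with bars of 1 SE, in 5 comparisons; red points have an unadjusted p under 0.05. Most points lie near 0 (median size 0.074 to 0.10), the Munc13 group lies to the right of 0 in both MPTP comparisons with control except for Unc13b in the delayed experiment, and SE bars of Vamp9 run beyond the axis.

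To examine what MPTP did before any irisin, MPTP-treated mice were compared with control mice in the pre-treatment experiment. The main fusion genes stood close to control. Over the 7 genes Snap25, Stx1a, Vamp1, Vamp2, Syt1, Cplx1 and Cplx2, log2 fold changes ran from -0.11 to 0.023, and their 95% intervals stayed between -0.53 and 0.32. Snap25 had 2799.6, 3304 and 2923 CPM in the control mice and 2868, 2956 and 3031 CPM in the MPTP mice, with full overlap. Its log2 fold change was -0.028, with a 95% interval of -0.18 to 0.12.

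Of 65 members, 8 had an unadjusted p under 0.05, 6 higher (all tested genes 3.36%) and 2 lower (2.67%), against 6.03% of all tested genes in either direction. Groups did not overlap for 7 members, 5 higher (all tested genes 5.71%) and 2 lower (5.93%), against 11.6% of all tested genes. The median log2 fold change was 0.012 for the members and -0.0018 for all tested genes. All 4 Munc13 genes had positive values, with a median of 0.28. Unc13a, the main priming factor of glutamate synapses, had 121, 96.5 and 89.7 CPM in control mice and 135, 116 and 129 CPM in MPTP mice, a log2 difference of 0.31 ± 0.12 (SE). Only control replicate 1 lay within the range of the MPTP mice. Unc13d, a priming factor of blood cell granules, had 0.641, 0.664 and 0.706 CPM in control mice and 0.748, 2.09 and 1.19 CPM in MPTP mice (log2 difference 0.999 ± 0.375 SE). The groups did not overlap, the highest value was in the mouse with 1640.4 CPM of choroid plexus markers, and without that library the difference was 0.53. The same fit gave 0.37 for Unc13a, 0.55 for Syn3 and -0.98 for Stx6.

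Syn3, the synapsin with the lowest level, had 8.61, 7.45 and 5.23 CPM in control mice and 10.2, 9.63 and 10.5 CPM in MPTP mice (log2 difference 0.51 ± 0.18 SE, edgeR adjusted p = 0.818). Every MPTP mouse was above every control mouse, and the difference was 0.33 without control replicate 3. The tomosyn gene Stxbp5, whose product competes for syntaxin, likewise had no overlap, with 83.6, 85.8 and 81.3 CPM in control mice and 93.8, 90.5 and 92.9 CPM in MPTP mice (0.15 ± 0.05 SE). Its paralog Stxbp5l had 9.98, 19.5 and 10.5 CPM in control mice and 19.3, 25.9 and 21.1 CPM in MPTP mice, where control replicate 2 overlapped (0.73 ± 0.28 SE). On the lower side, Syt15 had 1.69, 1.27 and 1.34 CPM in control mice and 0.993, 0.745 and 0.786 CPM in MPTP mice (-0.77 ± 0.24 SE). Stxbp4 (0.22 ± 0.09 SE, with overlap) completed the higher genes and the syntaxin Stx6 the lower ones. Leaving out control replicate 3 left 3 members at an unadjusted p under 0.05, and leaving out MPTP replicate 3 left 5.

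Stx6, a syntaxin of the Golgi and endosomes, had the smallest p of this comparison (edgeR adjusted p = 0.815). Control mice had 18.4, 52.9 and 40.9 CPM and MPTP mice 17.6, 17.1 and 20.4 CPM, a log2 difference of -1.03 ± 0.31 (SE). Control replicate 1 sat among the MPTP mice, so 2 control mice made the difference. Without control replicate 1 the log2 difference was -1.36 and the edgeR adjusted p was 0.0321, the only call of a member in this comparison when 1 mouse was left out. In the delayed experiment the high mice were control replicate 1 (53.4 CPM) and MPTP replicate 2 (58.7 CPM), and the other 10 mice had 19.03 to 23.6 CPM.

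Next, irisin-MPTP mice were compared with MPTP mice, the question being whether irisin given first altered these genes. For the 7 fusion genes, log2 fold changes ran from -0.061 to 0.13, with 95% intervals between -0.44 and 0.40. Without adjustment, 7 members had a p under 0.05, 4 higher (all tested genes 2.93%) and 3 lower (3.29%), against 6.22% of all tested genes. Groups did not overlap for 9 members, 4 higher (all tested genes 7.14%) and 5 lower (7.08%), against 14.2%. The median log2 fold change was 0.00011 for the members and 0.0031 for all tested genes.

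Syt12, a vesicle synaptotagmin that does not bind calcium, had the smallest p (log2 difference 0.35 ± 0.11 SE, edgeR adjusted p = 0.577). It had 24.4, 25.7 and 26.5 CPM in MPTP mice and 34.0, 33.2 and 30.6 CPM in irisin-MPTP mice. The groups did not overlap, and the control mice (27.5, 22.1 and 28.4 CPM) lay near the MPTP mice. Syt15 had 1.52, 1.14 and 1.51 CPM in irisin-MPTP mice, again above all MPTP mice (0.72 ± 0.24 SE). Snap23 had 24.7, 25.02 and 25.5 CPM in MPTP mice and 19.99, 21.3 and 18.6 CPM in irisin-MPTP mice (-0.33 ± 0.11 SE), without overlap. Syt3, a calcium-binding synaptotagmin, was also without overlap and higher in irisin-MPTP mice (0.17). Unc13d was at 0.521, 0.760 and 0.714 CPM in irisin-MPTP mice (-1.01 ± 0.37 SE), and the difference was -0.54 without the library rich in choroid plexus RNA.

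Syt7, a slow, high-affinity calcium sensor, had 39.1, 42.7 and 45.9 CPM in MPTP mice and 92.0, 46.1 and 209 CPM in irisin-MPTP mice (log2 difference 1.44 ± 0.44 SE, edgeR adjusted p = 0.583). The groups did not overlap, but irisin-MPTP replicate 2 lay within 1 CPM of the highest MPTP mouse and the other mice of its group far above. Without irisin-MPTP replicate 3 the log2 difference was 0.70. Snap91 had 281, 241 and 276 CPM in MPTP mice and 136, 258 and 115 CPM in irisin-MPTP mice (-0.65 ± 0.26 SE). Here too replicate 2 stood with the MPTP mice. Without it the log2 difference of Snap91 was -1.09 and the edgeR adjusted p was 0.0152.

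In the delayed experiment, MPTP mice were compared with control mice 5 days of ddH2O after the last MPTP injection. For the 7 fusion genes log2 fold changes ran from -0.16 to 0.12, with 95% intervals between -0.34 and 0.55. An unadjusted p under 0.05 was found for 8 members, 3 higher (all tested genes 4.32%) and 5 lower (4.01%), against 8.33% of all tested genes. Groups did not overlap for 17 members (26.2%), 7 higher and 10 lower, against 16.2% of all tested genes, of which 8.24% were higher and 7.94% lower. The median log2 fold change was -0.015 for the members and -0.0013 for all tested genes. Members lay on both sides of 0, and the share without overlap on the lower side was 15.4%.

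The lower members included abundant genes of the vesicle and the fusion complex, by small amounts. Vamp2, the vesicle SNARE, had 855, 826 and 885 CPM in control mice and 751, 820.5 and 744 CPM in MPTP mice (log2 difference -0.15 ± 0.05 SE, edgeR adjusted p = 0.415). Syn1, the main synapsin, had 552, 534 and 568 CPM in control mice and 486, 515 and 506 CPM in MPTP mice (-0.13 ± 0.04 SE). Snap25 had 2839, 3046 and 2876 CPM in control mice and 2624, 2715 and 2766 CPM in MPTP mice (-0.11 ± 0.05 SE). None of these 3 genes had overlapping groups, and neither did Cplx1 (-0.16), Syp (-0.051), Syt4 (-0.16), Syt13, Syt15 and Syt17, which were lower, or Vamp1 (0.12), which was higher. The abundant SNARE genes therefore lay on both sides of control. All 8 tested synaptotagmins that bind calcium poorly had negative values, with a median of -0.11, and Syt17 among them had the lowest p (-0.35 ± 0.14 SE). Syt2, a calcium sensor, was also lower without overlap (-1.14 ± 0.47 SE), and -0.34 without the libraries rich in choroid plexus RNA.

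Some marker lists of neurons moved with these genes. The summed level of 9 pan-neuronal markers was 6175 to 6341 CPM in the delayed controls and 5493 to 6088 CPM in the MPTP mice, without overlap. That of 8 dopaminergic markers was 665 to 699.8 CPM and 452 to 579 CPM. Cerebellar markers were also lower without overlap (269 to 305 and 250 to 266 CPM). Thalamic and hindbrain markers were higher without overlap (382 to 398 and 400 to 440 CPM). The other neuron lists overlapped, such as GABA (1116 to 1133 and 1044 to 1144 CPM) and glutamate markers (361 to 365 and 358 to 384 CPM). The part of neurons in the small differences of Vamp2, Syn1 and Snap25 was not tested. Without the 4 libraries rich in choroid plexus RNA, which left 1 control mouse assumed to vary like the other groups, the log2 differences were -0.17 for Vamp2, -0.18 for Syn1 and -0.11 for Snap25. None of the 8 members kept an unadjusted p under 0.05 in that fit. The 1 member that had one was Syt7 (-1.78, edgeR adjusted p = 0.177), for which the remaining control mouse was the high one. Without MPTP replicate 1 the number of members was 4.

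The higher members were led by priming genes. Unc13a had 102, 86.0 and 112 CPM in control mice and 138, 133 and 118 CPM in MPTP mice, and Unc13c, its paralog, had 91.2, 116 and 113 CPM and 138, 117 and 137 CPM. In both genes every MPTP mouse was above every control mouse, for Unc13c by a narrow margin. The log2 differences were 0.37 ± 0.12 (SE, edgeR adjusted p = 0.412) for Unc13a and 0.29 ± 0.11 (SE, edgeR adjusted p = 0.487) for Unc13c. Syn3 had 7.95, 9.54 and 10.7 CPM in control mice and 12.97, 13.9 and 14 CPM in MPTP mice (0.54 ± 0.17 SE). Without the libraries rich in choroid plexus RNA these differences were 0.27, 0.18 and 0.33, and that of Unc13c was 0.19 without control replicate 1 alone.

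Across both experiments, 2 of 65 members had an unadjusted p under 0.05 for MPTP against control in each, Syn3 and Unc13a, both higher in MPTP mice both times. Over all genes tested in both experiments this held for 129 of 20844 genes, 96 of them with the same sign. The MPTP mice of the delayed experiment had 5 more days after MPTP than those of the pre-treatment experiment, and the experiments differ in other ways that cannot be told apart from this.

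**Figure D3:**
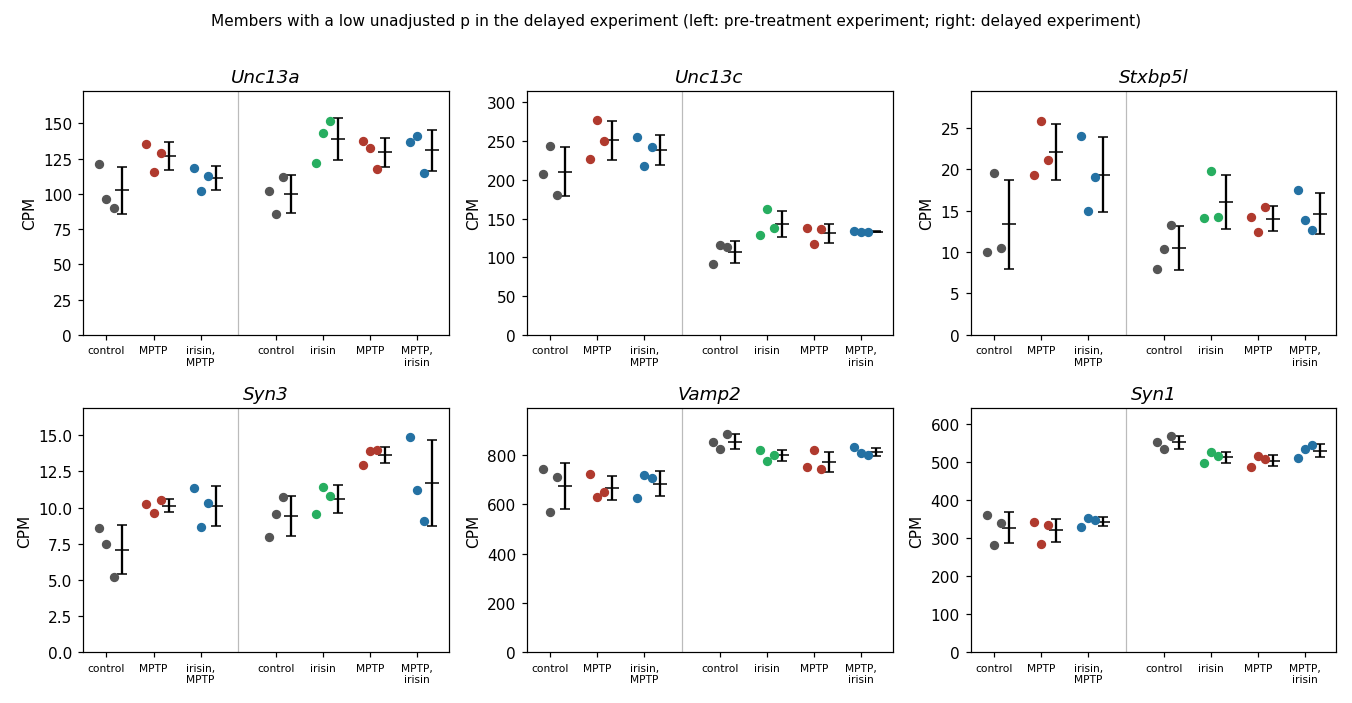
CPM of Unc13a, Unc13c, Stxbp5l, Syn3, Vamp2 and Syn1 in each mouse (points), with the mean and SD of each group (black) and the pre-treatment experiment to the left of the grey line. In the delayed experiment the 9 treated mice have 115 to 152 CPM of Unc13a, above the controls at 86.0 to 112 CPM.

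Irisin alone was compared with the same control mice, so this comparison shares its control samples with the previous one and the values are only set side by side. For the 7 fusion genes log2 fold changes ran from -0.18 to 0.087, with 95% intervals between -0.44 and 0.42. An unadjusted p under 0.05 was reached by 6 members, 4 higher (all tested genes 4.53%) and 2 lower (4.44%), against 8.97% of all tested genes. Groups did not overlap for 9 members, 5 higher (all tested genes 7.43%) and 4 lower (7.68%), against 15.1%. The median log2 fold change was -0.0090 for the members and -0.0023 for all tested genes.

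Unc13a had 122, 143 and 152 CPM in irisin mice (log2 difference 0.48 ± 0.12 SE, edgeR adjusted p = 0.326), and Unc13c had 129, 162 and 138 CPM (0.42 ± 0.11 SE, edgeR adjusted p = 0.362). Both genes were higher in all 3 irisin mice than in any control mouse. Stxbp5l had 7.95, 10.4 and 13.3 CPM in control mice and 14.1, 19.8 and 14.3 CPM in irisin mice (0.61 ± 0.20 SE), also without overlap. Stxbp4, which encodes a syntaxin 4 binding protein, had 24.3, 25.5 and 21.3 CPM against 18.1, 20.9 and 20.9 CPM (0.25 ± 0.10 SE). Stxbp2, the Munc18 form of secretory and blood cells, was lower at 9.36, 10.3 and 10.5 CPM against 12.9, 11.4 and 11.6 CPM (-0.25 ± 0.10 SE). Syn1 was at 496, 525 and 515 CPM (-0.11 ± 0.04 SE), below every control mouse. Pan-neuronal markers summed to 5329 to 5987 CPM in irisin mice, and dopaminergic markers to 616 to 626 CPM, both below the controls. Striatal markers were also below the controls (98.7 to 109 against 116 to 157 CPM). The other neuron lists overlapped with the controls, such as GABA (1085 to 1144 CPM) and glutamate markers (344 to 419 CPM). The part of neurons was not tested.

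The delayed controls were lowest for Unc13a, since all 9 mice given MPTP, irisin or both had 115 to 152 CPM and the 3 control mice 86.0 to 112 CPM. The 2 controls at or below 102 CPM were also those with over 1000 CPM of choroid plexus markers, and control replicate 3, with 234 CPM of these markers, had 112 CPM of Unc13a. MPTP-irisin replicate 2, with the most of these markers (1651 CPM), had 141 CPM of Unc13a, the highest of its group. Delayed MPTP replicate 3 and pre-treatment MPTP replicate 2, also rich in these markers, had 118 and 116 CPM of Unc13a, each the lowest of its group. The part of choroid plexus RNA in the levels of Unc13a was not tested. Without libraries rich in that RNA the irisin difference on the log2 scale was 0.31 for Unc13a, 0.34 for Unc13c and 0.28 for Stxbp5l, and none of the 6 members kept an unadjusted p under 0.05, which 3 others then had. The number of members was 3 without control replicate 1 and 10 without irisin replicate 3.

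Finally, MPTP-irisin mice were compared with MPTP mice to see what irisin given after MPTP did. For the 7 fusion genes log2 fold changes ran from -0.28, for Stx1a, to 0.077, for Vamp2. The value of Stx1a rested on MPTP replicate 2, the high mouse of its group (37.9 CPM), and was 0.024 without it. Only 2 members had an unadjusted p under 0.05, 2 higher (all tested genes 2.06%) and 0 lower (1.85%), against 3.9% of all tested genes in either direction. Groups did not overlap for 6 members, 4 higher (all tested genes 5.35%) and 2 lower (5.38%), against 10.7%. The median log2 fold change was 0.016 for the members and -0.00016 for all tested genes. This comparison shares its MPTP mice with that of MPTP against control.

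Syt2 had 197, 170.2 and 207 CPM in MPTP mice and 246, 594 and 585 CPM in MPTP-irisin mice (log2 difference 1.31 ± 0.48 SE, edgeR adjusted p = 1.0). Every MPTP-irisin mouse was above every MPTP mouse, and the difference was 1.18 without the libraries rich in choroid plexus RNA. Syt15 had 0.966, 1.01 and 0.705 CPM in MPTP mice and 3.20, 0.922 and 1.38 CPM in MPTP-irisin mice (1.04 ± 0.44 SE), with overlap and 1 high mouse, without which the difference was 0.37. Unc13b (0.29 ± 0.14 SE), Syn2 (0.39 ± 0.20 SE) and Stx4a (-0.13 ± 0.07 SE) followed and did not reach an unadjusted p of 0.05. Without MPTP-irisin replicate 3 the difference of Syn2 was 0.022, and without MPTP-irisin replicate 1 that of Unc13b was 0.14. Vamp2 and Syn1, lower in MPTP mice, had 833, 808 and 802 CPM and 509, 534 and 543 CPM in MPTP-irisin mice, overlapping with the MPTP mice. The number of members at an unadjusted p under 0.05 was 6 without MPTP replicate 2, and 1 without MPTP replicate 1 or without MPTP replicate 3. Without the libraries rich in choroid plexus RNA neither Syt2 nor Syt15 kept such a p, and 1 other member, lower in MPTP-irisin mice, had one.

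The interaction of irisin and MPTP tested whether irisin acted differently in mice given MPTP and mice not given it. There were 5 members with an unadjusted p under 0.05, 3 positive (all tested genes 2.81%) and 2 negative (2.76%), against 5.57% of all tested genes. They were Syt2 (1.96 ± 0.67 SE), Syn1 (0.18 ± 0.06 SE) and Vamp2 (0.17 ± 0.07 SE) on the positive side and Unc13a (-0.46 ± 0.17 SE) and Unc13c (-0.39 ± 0.15 SE) on the negative side, each with an edgeR adjusted p of 0.893. The control mice were at the low end for Unc13a and Unc13c and at the high end for Syn1 and Vamp2. The number was 3 without MPTP replicate 1 or MPTP replicate 3 and 9 without MPTP-irisin replicate 1. Without the libraries rich in choroid plexus RNA the interaction of Syt2 was 0.96, none of the 5 members kept an unadjusted p under 0.05, and the 1 member that had one was Syt7 (1.75, edgeR adjusted p = 0.534).

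Several members varied between single mice far more than between groups. A gap of at least 0.5 on the log2 scale between neighbouring mice, among members with a mean of at least 5 CPM, was found for 10 of 56 members in the pre-treatment experiment (17.9%, against 11.9% of other genes) and 7 of 56 in the delayed experiment (12.5%, against 9.89%). The gene lengths implied by counts and FPKM of a member stayed within 98.7 to 101% of their median over mice. The deposited FPKM values therefore follow the counts and carry the same gaps, which says nothing of where the gaps come from. A typical member was as steady as other genes, with a median SD of 0.146 and 0.111 on the log2 scale in the experiments against 0.139 and 0.135.

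Syt2 was among the most variable of the abundant members, with an SD over mice of 0.80 in the pre-treatment and 0.68 in the delayed experiment on the log2 scale. Its levels in the pre-treatment experiment were 97.4, 217 and 324 CPM in control mice, 410.1, 415 and 432 CPM in MPTP mice and 203, 91.5 and 399 CPM in irisin-MPTP mice. In the delayed experiment they were 515, 521 and 232 CPM in control mice, 478, 139.6 and 191 CPM in irisin mice, 197, 170.2 and 207 CPM in MPTP mice and 246, 594 and 585 CPM in MPTP-irisin mice. The MPTP mice were thus the highest group of the first experiment and among the lowest of the other, with little spread in both, whereas every other group held high and low mice. Syt2 lies at chr1:134646677-134762593 (GRCm38, plus strand).

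Syt7 showed the same kind of spread with fewer high mice, which were irisin-MPTP replicates 1 and 3 (92.0 and 209 CPM) and delayed control replicate 3 (179.7 CPM), the other 18 mice having 33.3 to 61.1 CPM. Syn2 had 352 CPM in pre-treatment MPTP replicate 3, 347 CPM in irisin-MPTP replicate 1 and 362 CPM in MPTP-irisin replicate 3, and 127 to 212 CPM elsewhere. Syt6 ran from 8.63 to 52.9 CPM in the pre-treatment experiment and from 9.27 to 43.9 CPM in the delayed experiment, with low and high mice in each group of the pre-treatment experiment. The high mice differed from gene to gene. Irisin-MPTP replicates 1 and 3, high in Syt7, were the low mice of Snap91, and replicate 3 was also highest for Syt6. Single low mice appeared for Stx17, an autophagosome syntaxin (13.9 CPM in delayed irisin replicate 1, 28.4 to 36.2 CPM in the other 11 mice), and for Syt14, which was at 5.71 CPM in that same mouse.

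**Figure D4:**
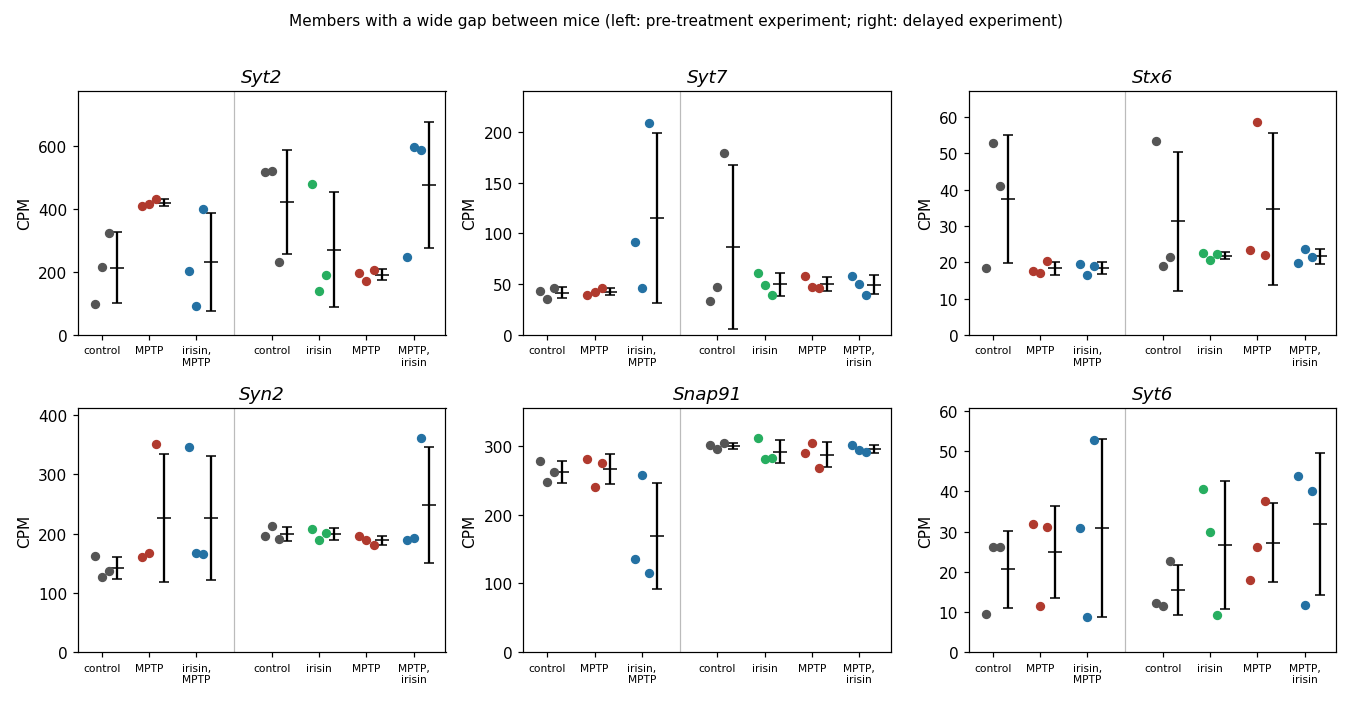
CPM of Syt2, Syt7, Stx6, Syn2, Snap91 and Syt6 in each mouse (points), with the mean and SD of each group (black) and the pre-treatment experiment to the left of the grey line. Single mice stand apart within groups, such as 179.7 CPM of Syt7 in delayed control replicate 3, and the mice that do so differ between genes.

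Other genes of the release pathway, listed by function, were looked at in the same fits. All 57 listed genes were tested, and 0 passed an adjusted p of 0.05 in edgeR. Without adjustment, a p under 0.05 was found for 3 higher and 1 lower in MPTP mice of the pre-treatment experiment, 1 and 1 in irisin-MPTP mice, 2 and 6 in delayed MPTP mice, 4 and 6 in irisin mice, and 0 in MPTP-irisin mice. Over all tested genes the shares higher and lower were 3.36% and 2.67%, 2.93% and 3.29%, 4.32% and 4.01%, 4.53% and 4.44%, and 2.06% and 1.85% in the same order. Active zone scaffold genes were among the higher ones in MPTP mice of the pre-treatment experiment, with log2 differences of 0.23 ± 0.07 (SE) for Erc2 and 0.23 ± 0.09 (SE) for Pclo. The endocytic scaffold Itsn1 was at 0.24 ± 0.09 (SE), and none of the 3 genes had overlapping groups. In irisin-MPTP mice the vesicle GTPase Rab27b was lower than in MPTP mice (-0.41 ± 0.13 SE) and the acetylcholine transporter Slc18a3 higher (0.98 ± 0.38 SE), both without overlap, followed by the scaffold Cask (0.27 ± 0.14 SE).

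In the delayed experiment the vesicle protein list had 4 of 15 genes lower and 0 higher in MPTP mice at an unadjusted p under 0.05, against 4.01% and 4.32% of all tested genes. Sncb, one of them, differed by -0.23 ± 0.08 (SE) in MPTP mice and by -0.29 ± 0.08 (SE) in irisin mice, both against the same controls, and the vesicle membrane protein Syngr1 by -0.13 ± 0.04 (SE) in irisin mice. Rims3, an active zone gene, was higher by 0.45 ± 0.14 (SE) in MPTP mice and 0.33 ± 0.14 (SE) in irisin mice, without overlap. Napg, a SNARE disassembly factor, had the largest difference, with 183, 42.9 and 150.8 CPM in control mice and 41.4 to 50.9 CPM in the irisin and MPTP mice (-1.42 ± 0.39 SE for MPTP, -1.43 ± 0.39 SE for irisin). Control replicate 2 was at the level of the treated mice. Without it Napg was at -1.83 (edgeR adjusted p = 0.000821) and -1.84 (edgeR adjusted p = 0.000952). Without the libraries rich in choroid plexus RNA it was at -1.74 (edgeR adjusted p = 0.0278) and -1.70 (edgeR adjusted p = 0.0167), a fit that keeps only control replicate 3, one of the high mice. In the pre-treatment experiment single mice were high as well, with 114.6 CPM in control replicate 3. In MPTP-irisin mice against MPTP mice, Rims2 (0.21 ± 0.10 SE), Cadps2 (0.23 ± 0.11 SE) and Snapin (-0.57 ± 0.31 SE) had the smallest p. In the interaction the leading genes were Sncb (0.34 ± 0.12 SE), Snapin (-1.23 ± 0.44 SE) and Napg (1.42 ± 0.54 SE, and 1.83 with an edgeR adjusted p of 0.0114 without control replicate 2).

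The members are long genes, with a median span of 41.0 kb against 14.8 kb for all tested genes, up to 513 kb for Syt1 at chr10:108497650-109010982 (GRCm38, minus strand). Promoters from RefSeq (GRCm38.p6, 250 bases before to 50 after each start) matched 52 members. They were GC-rich, with a median of 62.0% against 52.7% of all promoters. The cAMP response element TGACGTCA, searched on both strands (the word is its own reverse complement), was found in 2 members (3.85%) against 2.03% of 27025 genes, and TATAAA, searched on both strands, in 3 members (5.77%) against 15.7%. The element is shown for the 2 members because Syn1 is among the genes with a small p in the delayed experiment. Each line gives 24 bases on the gene's strand, with the element in capitals, from chrX:20921062-20921085 and chr3:108840595-108840618 (both minus strand).
Syn1: aggctgacTGACGTCActcactag
Stxbp3: gatgcgcgTGACGTCAcctgaggg
The element of Syn1 starts at -159 from the start site and that of Stxbp3, a Munc18 form found in most tissues, at -108. Stxbp3 had 33.0, 36.6 and 29.7 CPM in the delayed controls and 33.4, 31.3 and 34.0 CPM in the MPTP mice, with overlap.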

How the data were processed

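Per the methods, the authors counted reads per gene with featureCounts and deposited raw counts and FPKM values for every mouse. The submitters' processing notes name HISAT, StringTie, edgeR and mm9, yet the deposited coordinates are of GRCm38 (53 of 68 members have the same coordinates in GENCODE M21). Strand use is not given in the sources used here. Counts were tested with edgeR 4.0.16 in R 4.3.3 (filterByExpr with a least count of 10 and total of 15; scaling by TMM; two-sided quasi-likelihood test), with all groups of an experiment in 1 fit and Benjamini-Hochberg adjustment over 22641 and 21922 genes. FPKM served only to compare levels between genes. CPM is computed on TMM-scaled library sizes (factors 0.972 to 1.02). SE is the size of the log2 fold change divided by the square root of F, intervals are 95%. The p-values measure the spread between replicates within groups, pooled over all groups of an experiment. The estimate for each gene is drawn toward that of other genes. No pair of replicates agreed within sampling noise (smallest chi-square per gene 39.7). The steps were tested on simulated counts.

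The text names the core release genes, the 5 members with the smallest p of each comparison, the highest and lowest member of each role by FPKM, untested members, and the leading other pathway genes, and members outside this rule were chosen after their values were seen. Members and lists were chosen with earlier results of these data known. Alternatives were DESeq2 1.42.0, other scaling and filters, only the compared groups, a replicate block, each mouse left out, and libraries with over 1000 CPM of choroid plexus markers left out. Some members and pathway genes are not reported here by name.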

Additional observations from a re-analysis of the deposited data

Results flagged for a closer look

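Syt2 was flagged because MPTP and control mice were separated in both experiments in opposite directions, with log2 fold changes of 0.98 (pre-treatment) and -1.14 (delayed). Against MPTP mice it was separated in opposite directions too, with -0.86 in irisin-MPTP mice and 1.31 in MPTP-irisin mice. These 4 values share the 2 MPTP groups, whose mice had 410.1 to 432 CPM and 170.2 to 207 CPM. Syt4 was flagged in the same way for MPTP against control, with 0.13 and -0.16. Stx18, a syntaxin of the endoplasmic reticulum, was flagged for irisin with MPTP against MPTP, with -0.066 and 0.12. The difference between the experiments was not tested for any of them, since the experiments were not fitted together.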

How the results depend on the processing

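The count of members past an adjusted p of 0.05 was 0 in all 6 comparisons under other scaling, other filters, only the compared groups, the replicate block, DESeq2 and without the libraries rich in choroid plexus RNA. With each mouse left out it ran from 0 to 1 in both pre-treatment comparisons (Stx6 and Snap91) and was 0 in the others. Members past an unadjusted p of 0.05 then ran from 3 to 9 for pre-treatment MPTP against control and, among delayed comparisons, from 4 to 9 for MPTP, 3 to 10 for irisin, 1 to 6 for MPTP-irisin against MPTP and 3 to 9 for the interaction. Medians ran from -0.045 to -0.0043, from -0.015 to 0.041 and from -0.015 to 0.045 for MPTP, MPTP-irisin against MPTP and the interaction. Other pathway genes past an adjusted p of 0.05 ran from 0 to 1 (Napg) for MPTP, irisin and the interaction.

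Without the libraries rich in choroid plexus RNA, members past an unadjusted p of 0.05 numbered 1 for MPTP, 3 for irisin, 1 for MPTP-irisin against MPTP and 1 for the interaction, none of them a member counted with all mice, and the median for MPTP was 0.011. In this fit 1 other pathway gene (Napg) passed for MPTP and for irisin. These fits hold fewer mice. With only the compared groups, the members numbered 3 for irisin and 1 for MPTP-irisin against MPTP. With all genes of any count, the median of the interaction was -0.0087. The cause was not tested.

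Same-numbered mice showed no clear joint deviation (correlations of -0.078 to 0.10 in the first and -0.076 to 0.039 in the delayed experiment). Closest to their own number were 4 of 9 and 0 of 12 mice. Pairing by number was not detected, and weak correlations cannot exclude conditions shared by same-numbered mice. With the replicate block the number of members past an unadjusted p of 0.05 was 8, 6, 8, 7, 3 and 6 in the order of the comparisons, and it changed no adjusted call. With 3 mice a group, a missing call does not show that a gene did not differ.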
